A study of Mus musculus with 4 samples.

Results

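A set of 8 genes for nucleases, or for subunits of nucleases, that keep a cell's own DNA and RNA from building up was followed in RNA sequencing of fetal liver LSK cells. They are *Samhd1*, *Rnaseh2a*, *Rnaseh2b*, *Rnaseh2c*, *Dnase2a*, *Dnase1l3*, *Pld3* and *Pld4*. The genes were chosen by name for their function, and all 8 were found among the 39186 genes of the deposited table. LSK cells lack the stained lineage markers, carry Sca-1 and c-Kit on their surface, and hold the stem cells and early progenitors of the blood. The groups were *Pich*-KO (2 samples) and *Pich*-WT (2 samples), all of the strain C57BL/6 and sorted from fetal liver. Their age is not given for the sequenced samples, and the study took LSK cells from E14.5 embryos for its other assays. PICH is a DNA translocase that binds the ultrafine DNA bridges of anaphase. The *Pich*-KO line carries a small TALEN-made deletion at the start of exon 2 in every tissue, so that the cells around the stem cells lack PICH too. The sources used here do not say whether a sample is 1 embryo or a pool, so p-values measure only the spread between these samples, which may be partly technical. The lineage stain of the study's sorts held antibodies to CD4, CD8, Gr-1, B220 and Ter119, and none to a macrophage or an endothelial marker.

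Each enzyme of this set limits a kind of nucleic acid that innate immune receptors would otherwise read as foreign. In the nucleus and the cytosol, SAMHD1 breaks down deoxynucleotides, and RNase H2 cuts RNA paired with DNA and takes single ribonucleotides out of DNA. In the lysosome, DNase II digests the DNA of engulfed cells and of nuclei that macrophages of the fetal liver take from maturing red cells, while PLD3 and PLD4 trim single-stranded DNA and RNA from the 5′ end in endosomes and lysosomes. DNASE1L3 is secreted and digests DNA wrapped in chromatin outside cells. Loss of SAMHD1 or of RNase H2 causes Aicardi-Goutières syndrome in people, in which type I interferons (IFNs) are raised, and mouse embryos without DNase II die of anemia with high IFN.

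The deposited values are the reads of each gene scaled by a size factor of the sample, here called normalized counts. The libraries held 14703215 to 20933919 reads on genes. *Kit*, *Ly6a* (Sca-1) and *Cd34* were read in each sample, with *Kit* at 4447 and 2772 normalized counts (*Pich*-KO) against 2328 and 2513 (*Pich*-WT). *Pich*-WT sample 2 had 0 reads on 4 Y-linked genes and the other samples had 1607 to 2848, so the sexes of the embryos were not balanced. The PICH gene itself, *Ercc6l*, averaged 1187 ± 63.8 (SD, n = 2) in *Pich*-KO against 717 ± 78.6 in *Pich*-WT, in normalized counts. The deletion leaves most of the transcript to be counted, so its level does not check the labels.

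The test was limma on log2(normalized count + 1) for all 32428 genes with a mean of at least 1 normalized count, and adjusted p-values are Benjamini-Hochberg values over all of them. Fold changes are on this log2 scale, where the added 1 makes those of low genes too small. All 8 nuclease genes passed the filter on the mean. Of these, 0 were higher and 4 were lower in *Pich*-KO at an adjusted p of 0.05 (limma). Over all genes tested, 7.58% were called higher and 9.60% lower, 17.2% together. The tools edgeR and DESeq2, run on the recovered reads, called the same 4 lower and 0 higher, where edgeR called 18.6% of its 16608 genes higher and 20.7% lower. The 4 genes that fell, *Dnase1l3*, *Pld3*, *Dnase2a* and *Pld4*, are the 4 whose products work in lysosomes and endosomes or are secreted, with a median log2 fold change of −1.82. None of the 4 genes whose products work in the nucleus and the cytosol was called, and their median was 0.06. The median over all genes tested was 0.03. This grouping by place of action was not among the planned comparisons, and its medians restate the calls. At an unadjusted p under 0.05 the 4 nuclear and cytosolic genes held 1 gene, *Rnaseh2a*, by limma and by edgeR, and 0 by DESeq2. At an adjusted p of 0.05 they held 0 by edgeR and DESeq2. With 2 samples against 2, the exact two-sided permutation test of a single gene cannot go below p = 0.333, so each call leans on the spread that limma borrows from other genes. Without any 1 of the samples (each of *Pich*-KO 1 and 2 and *Pich*-WT 1 and 2 in turn), limma called 0 genes of the whole table, and the 4 genes kept their direction with adjusted p-values of 0.0683 to 0.300. In sorted bulk samples, fewer cells of a type and less RNA per cell cannot be told apart.

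**Figure D1:**
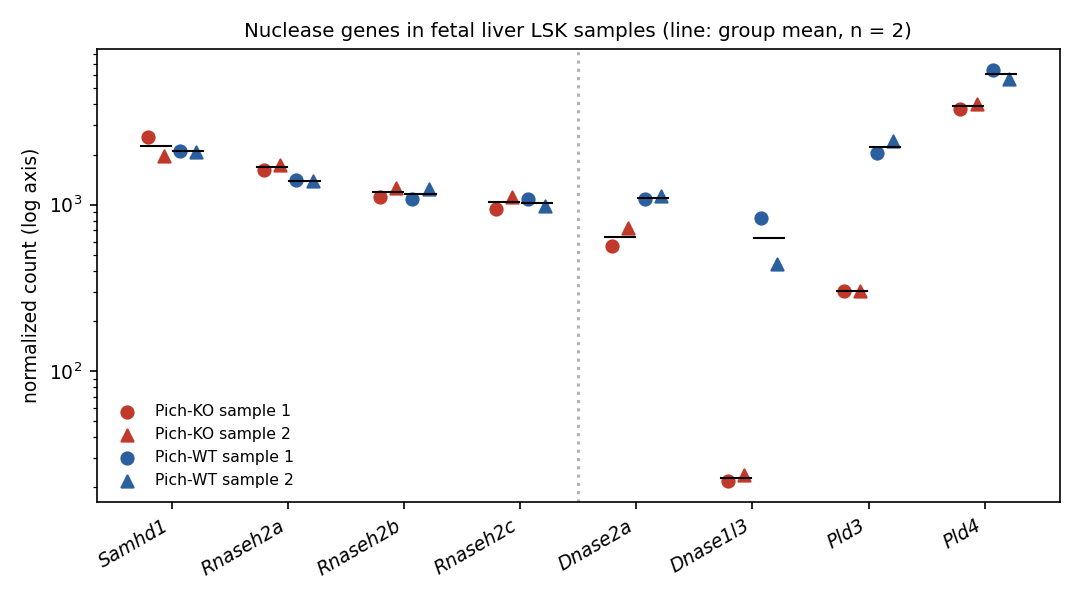
Normalized counts (log axis) of the 8 nuclease genes in each sample; red is *Pich*-KO and blue *Pich*-WT, circles are sample 1 and triangles sample 2, and the black lines are the means of each group (n = 2). To the left of the dotted line are the genes of nuclear and cytosolic enzymes, whose points lie close together, and to its right the 4 genes whose *Pich*-KO points lie below both *Pich*-WT points, *Dnase1l3* by the widest gap.

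*Dnase1l3* (ENSMUSG00000025279, chromosome 14, 7964533 to 7994573, minus strand, GRCm38) fell most. Its normalized counts were 21.8 and 23.9 in *Pich*-KO samples 1 and 2, against 826 and 438 in *Pich*-WT samples 1 and 2. These rest on 20 and 21 reads in *Pich*-KO and on 1057 and 438 in *Pich*-WT. Both *Pich*-KO samples were far below both *Pich*-WT samples, and the *Pich*-WT samples also stood apart from each other. The mean in *Pich*-KO was 3.61% of the *Pich*-WT mean, and the log2 fold change was −4.66 (standard error 0.33, 95% confidence interval −5.41 to −3.91, adjusted p = 9.8e-05, limma). Of all genes tested, 0.253% had a fold change this low or lower.

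*Pld3* (ENSMUSG00000003363, chromosome 7, 27532000 to 27553218, minus strand) encodes the 5′ exonuclease that is found in many tissues. It had 303 and 305 normalized counts in *Pich*-KO against 2035 and 2409 in *Pich*-WT. The *Pich*-KO samples were nearly equal, and both lay far under the *Pich*-WT level. *Pld3* fell to 13.7% of the *Pich*-WT mean, a log2 fold change of −2.86 (standard error 0.14, interval −3.19 to −2.53, adjusted p = 3e-05, limma), which 1.73% of the genes tested reached or passed.

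*Pld4* (ENSMUSG00000052160, chromosome 12, 112760655 to 112768990, plus strand), whose product is an endosomal 5′ exonuclease of macrophages, dendritic cells and other blood cells, was the most abundant of the set. Its counts were 3776 and 4001 in *Pich*-KO against 6458 and 5683 in *Pich*-WT, with no overlap between groups. The fall was to 64.1% of the *Pich*-WT mean, a log2 fold change of −0.64 (standard error 0.10, interval −0.86 to −0.42, adjusted p = 0.00304, limma). The intervals of *Pld3* and *Pld4* did not overlap. Between these genes, reads per kilobase of mRNA were 14.4 and 15.2 times higher for *Pld4* in *Pich*-KO against 3.68 and 2.73 times higher in *Pich*-WT.

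Promoter sequences of 6 of the 8 genes were found in RefSeq (GRCm38.p6), each with the 250 bases before the start that RefSeq gives the gene. For *Samhd1*, *Rnaseh2a* and *Dnase2a* that start lies inside the gene as the coordinates given here have it, so that 169, 211 and 195 bases of these windows are covered by an exon of the gene itself. *Pld3* and *Pld4* are shown because their products do the same work and both genes fell, by unlike amounts. The *Pld3* stretch is chr7:27553354-27553468 on the minus strand, bases 250 to 136 before the start, and leaves out the bases nearer the start, which an exon of a neighbouring gene covers in part. The *Pld4* stretch is chr12:112760405-112760654 on the plus strand, bases 250 to 1 before the start. Capitals mark a match, on the other strand, to the core of the ISRE, the element through which IFN acts, which is TTTC, any 2 bases and TTTC and was searched on both strands.
*Pld3*: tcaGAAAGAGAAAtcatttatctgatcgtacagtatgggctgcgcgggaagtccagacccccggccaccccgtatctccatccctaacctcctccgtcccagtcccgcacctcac
*Pld4*: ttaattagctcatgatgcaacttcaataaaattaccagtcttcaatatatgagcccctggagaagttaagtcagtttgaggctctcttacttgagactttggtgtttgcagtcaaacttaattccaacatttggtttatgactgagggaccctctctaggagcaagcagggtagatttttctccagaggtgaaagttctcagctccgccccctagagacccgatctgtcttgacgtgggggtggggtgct

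The windows of these genes differed in composition, with 66.4% G and C and 20 CG pairs over the 250 bases of *Pld3* and 45.2% and 3 for *Pld4*, against medians of 52.4% and 6 over 32851 windows. The ISRE core was found in *Pld3* and not in the windows of *Rnaseh2c* and *Pld4*, nor in those of *Samhd1*, *Rnaseh2a* and *Dnase2a*, which lie largely within their genes, and 2.98% of all windows hold it. No match was found in the 6 windows to CACGTG, the core of the E-box that lysosomal genes share, nor to TTTCCCGC or TTTGGCGC (E2F) or GAGGAAGT (PU.1), which 6.02%, 1.30% and 2.44% of all windows hold.

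*Dnase2a* (ENSMUSG00000003812, chromosome 8, 84908560 to 84922915, plus strand) encodes DNase II, the acid endonuclease of lysosomes. It had 561 and 722 normalized counts in *Pich*-KO against 1077 and 1123 in *Pich*-WT. Here the *Pich*-KO samples differed from each other more than the *Pich*-WT samples did, and the groups did not overlap. The mean fell to 58.3% of *Pich*-WT, and the log2 fold change was −0.79 (standard error 0.16, interval −1.15 to −0.42, adjusted p = 0.0111, limma). In the annotation, 1616 of its exon bases are shared with *Mast1* on the opposite strand, a gene with 5 to 18 reads per sample. Groups did not overlap, with *Pich*-KO lower, in 4 of the 8 nuclease genes, the ones called lower, and in 27.2% of all genes tested. *Dnase2a* lies 33695 bases from *Rnaseh2a*, which was not called.

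*Samhd1* (ENSMUSG00000027639, chromosome 2, 157097533 to 157135265, minus strand) encodes the deoxynucleotide triphosphohydrolase, and in other cell types it is known as a gene that IFNs can raise. It had 2534 and 1956 normalized counts in *Pich*-KO against 2101 and 2075 in *Pich*-WT. *Pich*-KO sample 1 was the highest and *Pich*-KO sample 2 the lowest, with both *Pich*-WT samples between them. The log2 fold change was 0.09 (standard error 0.14, interval −0.23 to 0.41, adjusted p = 0.734, limma), and it was −0.09 without *Pich*-KO sample 1. In the same libraries all 15 genes of a list of interferon-stimulated genes were higher in *Pich*-KO (limma), with a median log2 fold change of 2.47 and, for *Isg15*, 183 and 220 normalized counts in *Pich*-WT against 3963 and 2626 in *Pich*-KO. Every gene of that list had its highest value in *Pich*-KO sample 1, as *Samhd1* did. A higher value in *Pich*-KO sample 1 than in *Pich*-KO sample 2 was not particular to interferon genes. Sample 1 also exceeded sample 2 of *Pich*-KO in 10 of 10 marker genes of LSK cells and their subsets and 10 of 10 endothelial genes, but in 1 of 9 B lineage genes. In *Pich*-KO sample 2, *Samhd1* was below both *Pich*-WT samples, whereas all 15 listed genes were above both *Pich*-WT samples in each *Pich*-KO sample.

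RNase H2 is built of a catalytic subunit, A, and of the subunits B and C that A needs to be active, B being the one that binds the replication clamp PCNA. *Rnaseh2a* (ENSMUSG00000052926, chromosome 8, 84956610 to 84969767, minus strand) had 1618 and 1729 normalized counts in *Pich*-KO against 1408 and 1380 in *Pich*-WT. Both *Pich*-KO samples were above both *Pich*-WT samples, as in 28.9% of all genes tested. The log2 fold change of 0.26 (standard error 0.11, interval 0.00 to 0.52) did not pass the threshold (adjusted p = 0.169, limma). Of 12 genes of DNA replication in S phase, 8 were higher and 0 lower in *Pich*-KO (limma), with a median of 0.39, and *Mcm2* of the replicative helicase had 11963 and 11989 against 9726 and 9611. The exons of *Rnaseh2a* share 339 bases with those of *Gm49661* on the same strand, a gene not analysed here, and 177 bases with those of *Prdx2* on the opposite strand, a gene with 5900 and 5893 normalized counts in *Pich*-KO against 10306 and 9185 in *Pich*-WT. Whether reads were counted by strand is not given in the sources used here.

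*Rnaseh2b* (ENSMUSG00000021932, chromosome 14, 62292589 to 62372992, plus strand) had 1116 and 1264 normalized counts in *Pich*-KO against 1086 and 1243 in *Pich*-WT. *Rnaseh2c* (ENSMUSG00000024925, chromosome 19, 5601873 to 5603439, plus strand) had 946 and 1117 against 1079 and 977. For both genes the values of the groups overlapped, and the samples of a group differed more than the groups did. Their log2 fold changes were 0.03 (interval −0.28 to 0.34, adjusted p = 0.915, limma) and 0.00 (interval −0.32 to 0.33, adjusted p = 0.994, limma). At this number of samples, changes within these intervals were not detectable. Of the exon bases of *Rnaseh2c*, 24.8% are shared with *Kat5* on the opposite strand, which had 737 and 896 normalized counts in *Pich*-KO against 809 and 730 in *Pich*-WT.

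**Figure D2:**
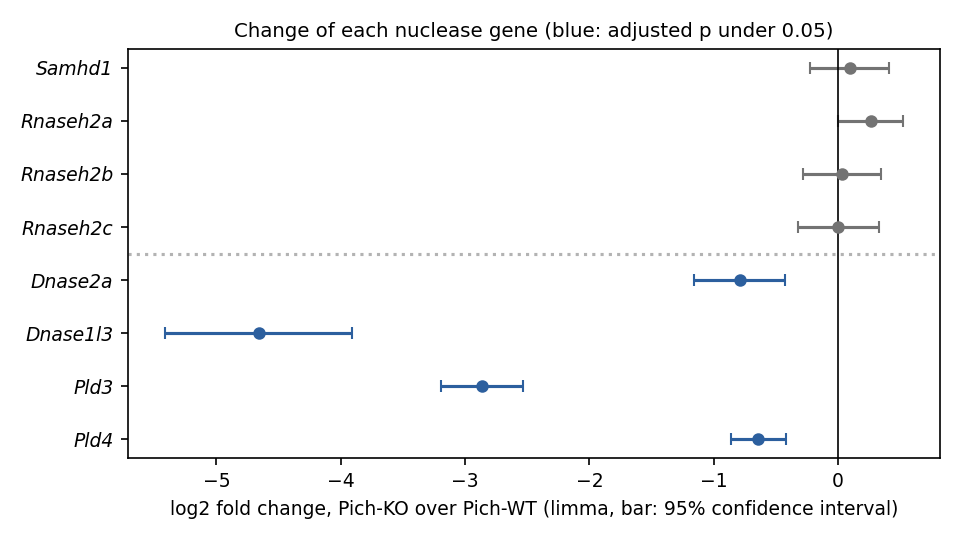
Log2 fold change of each nuclease gene in *Pich*-KO over *Pich*-WT (limma, 2 samples against 2), with 95% confidence intervals as bars; blue marks an adjusted p under 0.05. The intervals of *Dnase2a*, *Dnase1l3*, *Pld3* and *Pld4* lie below 0, from −4.66 for *Dnase1l3* to −0.64 for *Pld4*, and those of *Samhd1*, *Rnaseh2b* and *Rnaseh2c* hold 0.

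Levels were compared between genes as RPKM, the reads per kilobase of mRNA scaled to the reads on genes of each library, with the length of the annotated transcript that has the longest coding region. *Pld4* was highest in each sample, at 115 and 121 in *Pich*-KO against 199 and 184 in *Pich*-WT. *Rnaseh2c* followed in each sample, with 74.0 and 86.7 against 85.6 and 81.4, and *Dnase1l3* was lowest, with 0.277 and 0.301 against 10.6 and 5.93. *Pld3* was the third in both *Pich*-WT samples, at 54.2 and 67.4, and the last but one in both *Pich*-KO samples, at 7.96 and 7.94. Summed over the 8 genes, the level was 334 and 356 in *Pich*-KO against 494 and 498 in *Pich*-WT. The share of the 3 RNase H2 subunits in this sum was 45.5% and 48.3% in *Pich*-KO against 32.2% and 33.0% in *Pich*-WT, and that of *Pld3* was 2.39% and 2.23% against 11.0% and 13.5%. Subunit A stood at 0.727 and 0.686 times subunit B in *Pich*-KO against 0.650 and 0.556 times in *Pich*-WT, ranges that did not overlap but lay close. The ranks between the first and the last depend on the length used. Per kilobase of all annotated exons *Pld3* was above *Rnaseh2c* in *Pich*-WT sample 2 and *Rnaseh2a* was above *Rnaseh2b* in each sample. Per kilobase of mRNA both orders were the other way in those samples.

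**Figure D3:**
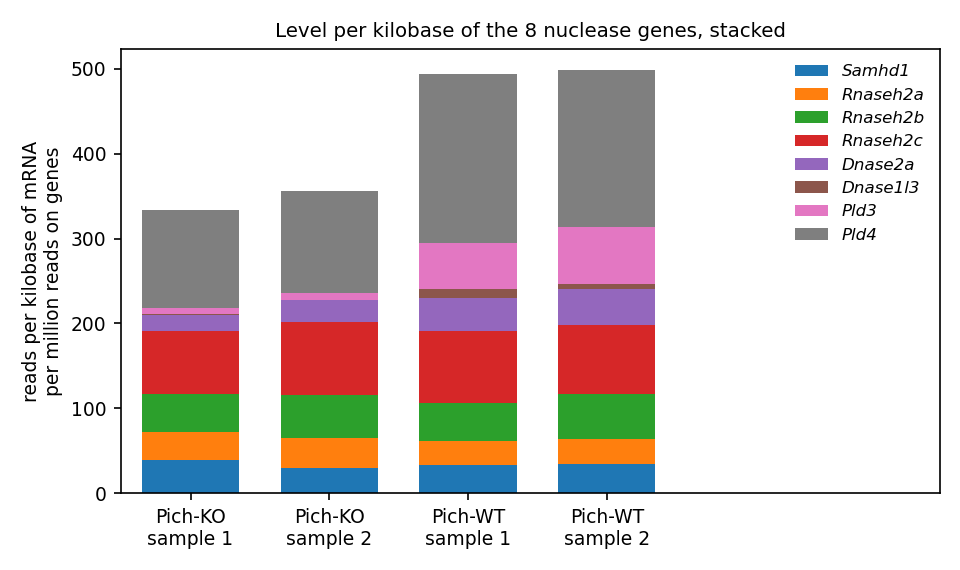
Stacked levels of the 8 nuclease genes in each sample, in RPKM (reads per kilobase of mRNA, scaled to the reads on genes). The bars reach 334 and 356 in *Pich*-KO against 494 and 498 in *Pich*-WT, and the segments of *Pld4*, *Pld3*, *Dnase2a* and *Dnase1l3* are the ones that are shorter in both *Pich*-KO bars than in both *Pich*-WT bars.

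Markers of macrophages and of endothelial cells moved in the same direction as the 4 nuclease genes that fell. Of 16 macrophage genes 15 were lower and 0 higher in *Pich*-KO (limma), with a median log2 fold change of −4.82. The summed level of the 16 was 644 and 558 CPM (reads scaled to the library's reads on genes) in *Pich*-KO against 3760 and 4063 CPM in *Pich*-WT, and no gene of the list was at 0 in both *Pich*-KO samples. *Adgre1* (F4/80) had 273 and 205 normalized counts against 6617 and 6927, and *C1qa*, a chain of complement C1q, had 73.1 and 68.2 against 3625 and 3540. *Csf1r*, the receptor that macrophages need to survive, was the least lowered of those called, at 39.9% of the *Pich*-WT mean. In this list the median gene kept 3.59% of its *Pich*-WT level, a value close to that of *Dnase1l3*, while *Pld3*, *Dnase2a* and *Pld4* kept more. *Fcgr1* was not called, with 1400 and 1213 against 1121 and 1185.

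All 10 endothelial genes were lower in *Pich*-KO (limma), with a median of −4.19 and a summed level of 200.4 and 111 CPM against 2612 and 1834. *Stab2*, a scavenger receptor of the liver sinusoids, had 146 and 110 normalized counts against 4098 and 2923. Each endothelial gene was higher in *Pich*-WT sample 1 than in *Pich*-WT sample 2, by 1.26 to 2.34 times, and *Dnase1l3* was higher there by 1.89 times. This was not particular to endothelial genes. All 9 B lineage genes were higher in *Pich*-WT sample 1 too, by 1.03 to 1.74 times, as were 9 of 10 erythroid and 10 of 12 S phase genes. In the macrophage list this ratio had a median of 0.954 and in *Pld3* it was 0.845. Between the *Pich*-KO samples each endothelial gene was higher in sample 1, whereas the ratio of *Dnase1l3* was 0.914. The part of macrophages and endothelial cells in the change of the nuclease genes was not tested.

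Lysosomal genes outside the nucleases fell as well. Of 16 lysosomal hydrolases and membrane proteins 13 were lower and 1 was higher in *Pich*-KO (limma), with a median log2 fold change of −1.16. Over all genes tested limma called 9.60% lower. By edgeR 14 of the 16 were lower and 2 higher, against 20.7% lower over its 16608 genes. The proteases *Ctsb* and *Ctsl* fell by 2.62 and 2.49 on the log2 scale. *Gla*, which encodes alpha-galactosidase A, was the gene that limma called higher, by 0.58. *Dnase2a* and *Pld4* therefore fell by less than the median of this list and *Pld3* by more. Markers of plasmacytoid dendritic cells, which express *Pld4* at a high level, stood at a median of −1.03 on the log2 scale, and limma called 1 of 7 tested genes higher and 0 lower. At an unadjusted p under 0.05 limma held 2 of them lower, and edgeR and DESeq2 called 0 lower. Both *Pich*-KO values lay below both *Pich*-WT values for 3 of the 7, a pattern that 27.2% of all genes tested showed. For 1 of the 7 both lay above, as for 28.9% of all genes tested. *Siglech* had 113 and 19.3 normalized counts against 163 and 70. Of 9 B lineage genes limma called 0, with 1 at an unadjusted p under 0.05, DESeq2 called 0, and edgeR called 1 lower. Limma called 7 of 10 erythroid and 6 of 10 hepatocyte genes lower, against 9.60% of all genes tested, with medians of −1.29 and −0.82. The highest log2 fold change in the hepatocyte list was −0.05. Of 10 marker genes of LSK cells and their subsets 1 was higher and 4 were lower (limma), with *Ly6a* at 3586 and 2978 against 901 and 1061. *Procr* and *Hlf*, genes of stem cells, had log2 fold changes of −2.88 and −2.37. *Ly6a* encodes Sca-1, a marker by which the cells were sorted, and whether the sort took in the same cells in both groups was not tested.

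**Figure D4:**
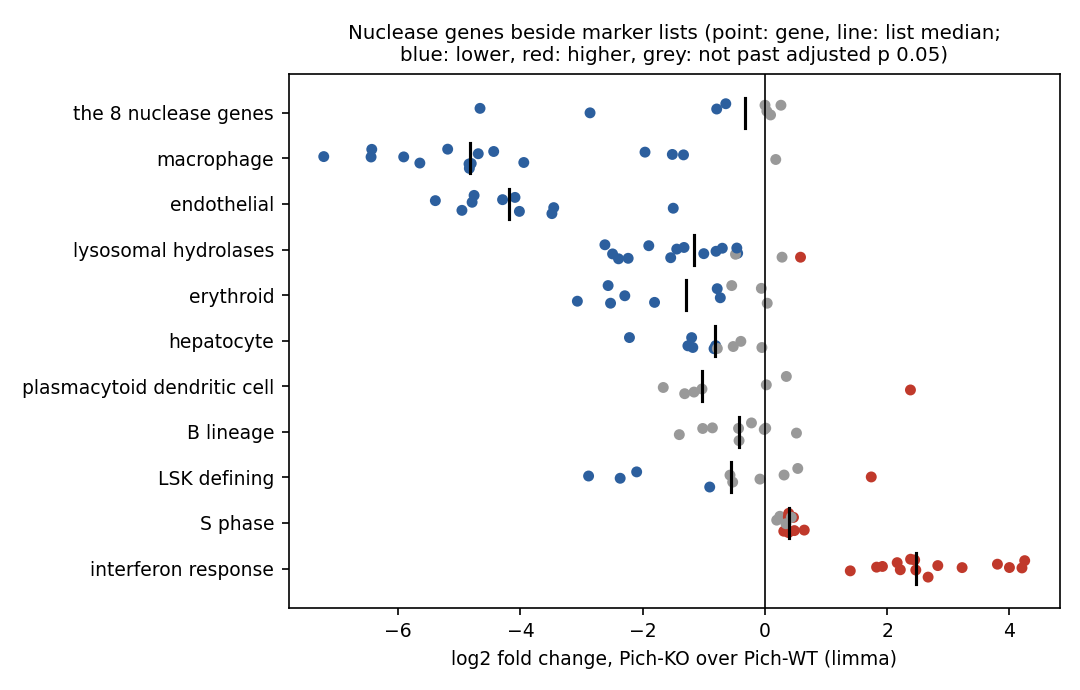
Log2 fold change (limma) of the genes of each list in *Pich*-KO over *Pich*-WT, 1 point a gene and a black line for the median; blue is lower, red higher and grey not past an adjusted p of 0.05. The macrophage and endothelial medians lie at −4.82 and −4.19, the lysosomal median at −1.16, and the 8 nuclease genes spread from −4.66 to 0.26.

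Other nucleases of the same families and routes moved both ways. Of 14 further genes of DNases and of a DNase inhibitor 13 were analysed here and 12 were tested. Of these 2 were higher and 1 lower (limma), and *Trex1* was not analysed here. *Dnase1*, the secreted DNase that prefers naked DNA, had 52.4 and 76.2 normalized counts in *Pich*-KO against 21.9 and 19 (log2 fold change 1.58, adjusted p = 0.0215, limma), and so rose where *Dnase1l3* fell. *Exo1*, the exonuclease of mismatch repair and end resection, rose from 1051 to 1633 (log2 fold change 0.64, adjusted p = 0.00669, limma). *Dnase1l1*, an X-linked relative of *Dnase1l3*, had 107 and 139 against 263 and 295 (log2 fold change −1.19, adjusted p = 0.00832, limma).

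Of 13 further RNases and factors that limit double-stranded or hybrid RNA, 6 were higher and 0 lower in *Pich*-KO (limma), with a median of 0.17. *Adar*, the editing enzyme that marks the cell's own double-stranded RNA and has a form raised by IFN, had 3883 and 3026 normalized counts against 1077 and 1149 (log2 fold change 1.62, adjusted p = 0.000228, limma). *Pnpt1*, which degrades mitochondrial RNA, had 2730 and 2524 against 930 and 1023 (1.43, adjusted p = 0.000184, limma), and its helicase partner *Supv3l1* rose by 0.62 (adjusted p = 0.0123, limma). *Rnaseh1*, the other RNase H of the cell, had 720 and 660 against 443 and 452 (log2 fold change 0.62, adjusted p = 0.0224, limma). Its groups were further apart than those of *Rnaseh2a*, but the difference between the changes of these genes was not tested.

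Among 4 other members of the phospholipase D family 2 were lower. *Pld1* and *Pld2*, which cut phosphatidylcholine in membranes and are not nucleases, had 69.8 and 64.8 against 365 and 377, and 37.1 and 31.8 against 262 and 241. The log2 fold change of *Pld1* was −2.45 (adjusted p = 0.000228, limma) and that of *Pld2* was −2.83 (adjusted p = 0.00027, limma), values close to that of *Pld3*.

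The enzymes that make the deoxynucleotides SAMHD1 destroys were taken as a list of 11 genes, of which 3 were higher and 1 lower (limma), with a median of 0.17. *Dut*, which keeps uracil out of DNA, had 4484 and 5207 normalized counts against 2728 and 2596 (log2 fold change 0.86, adjusted p = 0.00113, limma). *Rrm2*, the regulated subunit of ribonucleotide reductase, rose by 0.53 (adjusted p = 0.0337, limma) and *Dctd* by 0.59 (adjusted p = 0.0288, limma). *Tk2*, the thymidine kinase of mitochondria, had 328 and 275 against 605 and 714 (log2 fold change −1.13, adjusted p = 0.00352, limma).

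Genes of nucleic acid sensing moved both ways. Of 12 genes 5 were higher and 4 lower (limma). Among the 12, *Tmem173* (STING) and *Unc93b1* are not receptors of nucleic acid themselves. *Mb21d1* (cGAS) and *Tmem173* were called higher, by 1.10 and 0.52 on the log2 scale, and *Unc93b1* was called lower, by 0.65. *Zbp1*, a sensor of Z-form nucleic acid, had 1719 and 868 normalized counts in *Pich*-KO against 226 and 245 (log2 fold change 2.37, adjusted p = 0.0011, limma). *Ifih1* (MDA5), a cytosolic sensor of long double-stranded RNA, had 2276 and 1310 against 488 and 477 (log2 fold change 1.84, adjusted p = 0.00141, limma). The endosomal receptors *Tlr13* and *Tlr3* went down. *Tlr13* had 88.3 and 45.5 against 477 and 418 (log2 fold change −2.80, adjusted p = 0.000779, limma), and *Tlr3* had 90.5 and 45.5 against 370 and 290 (log2 fold change −2.33, adjusted p = 0.00247, limma). *Tlr9*, the receptor of the single-stranded DNA that PLD3 and PLD4 trim, had 199 and 130 against 103 and 95 and was not called (adjusted p = 0.139, limma).

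For each nuclease gene the genes with the nearest profile were taken among genes with a mean of at least 100 normalized counts, by the distance between log2 profiles over the 4 samples after each gene's mean was subtracted. Nearest to *Dnase1l3* were *C1qtnf1*, *Ciita* and *Tcim*, at distances of 0.190, 0.293 and 0.339, and for *Pld3* they were *Abcg3*, *Zfp703* and *Tgfbi*, at 0.0391, 0.103 and 0.151. *C1qtnf1* had 8.73 and 7.96 normalized counts in *Pich*-KO against 341 and 167 in *Pich*-WT. Its wide gap between the *Pich*-WT samples follows from its being chosen for a profile like that of *Dnase1l3*. *Dnase2a* was nearest to *Cd1d1*, *Lysmd4* and *Arrb2* (0.0448, 0.0534 and 0.0581) and *Pld4* to *Commd10*, *Slc29a1* and *Slc43a3* (0.0113, 0.0277 and 0.0283). Within a distance of 0.25 lay 1 gene for *Dnase1l3* and 8 for *Pld3*, but 112 for *Dnase2a*, 495 for *Pld4* and 724 to 2077 for the other 4 genes. With 4 samples, likeness of this kind is common for genes that change little.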

How the data were processed

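LSK cells were sorted from fetal liver, RNA was extracted with Trizol and libraries were made with an Illumina TruSeq kit, per the labels. The submitters' processing notes name Bowtie 0.12.2 and the builds mm8 and mm9, but 97.8% of 39163 genes found in GENCODE M21 had its GRCm38 start and end, so coordinates are given on GRCm38. The counter is not given in the sources used here. The values deposited by the authors are a signal, the reads of each gene scaled by a size factor of the sample, and 100% of them were whole multiples of one step (tolerance 0.01 reads), which gave back the reads. The authors' deposited log2 fold changes, p-values and group means were not used. Genes whose mean reached 1 were tested with limma 3.58.1 (R 4.3.3) on log2(value + 1), its trend option on, with a threshold of 0.05 and Benjamini-Hochberg adjustment. Lengths of transcripts came from GENCODE M21.

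The genes and lists were chosen with earlier results of these data known. Named genes are the 8 nuclease genes, the deleted gene, in each other list up to 2 with the highest and 2 with the lowest log2 fold change among those called, a few defining markers, and the 3 nearest profiles of each nuclease gene, given here for *Dnase1l3*, *Pld3*, *Dnase2a* and *Pld4*. *Cd34*, *Fcgr1*, *Tlr9*, *Mb21d1*, *Tmem173*, *Unc93b1* and the genes that overlap a nuclease gene were named after their values were seen. The grouping of the nuclease genes by place of action was not planned either. Alternatives were edgeR 4.0.16 (TMM and upper-quartile scaling) and DESeq2 1.42.0 on the recovered reads, a single prior variance, no filter on the mean, a pseudocount of 0.1, at least 10 reads in every sample, a replicate block and leaving out each sample. The fits were tested on simulated data. Spread within each group exceeded sampling noise (chi-square per degree of freedom 14.7 in *Pich*-KO and 8.18 in *Pich*-WT).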

Additional observations from a re-analysis of the deposited data

How the results depend on the processing

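The 4 nuclease genes called lower stayed past the threshold with edgeR under both scalings, DESeq2, no filter on the mean, a pseudocount of 0.1, at least 10 reads in every sample and the replicate block, and 0 were called higher under any of these. Their log2 fold changes over these ran from −4.79 to −4.66 for *Dnase1l3*, −2.87 to −2.84 for *Pld3*, −0.79 to −0.75 for *Dnase2a* and −0.64 to −0.61 for *Pld4*. *Rnaseh2a* was nearest to a call among the others, with adjusted p-values of 0.0571 (edgeR, upper quartile) to 0.507 (limma without a variance trend). With one prior variance for all genes, limma called 0 genes higher and 0 lower over all genes, and 0 of the nuclease genes, the other nucleases, the deoxynucleotide enzymes and the sensors, although 7377 genes, 4 of the nuclease genes among them, had an unadjusted p under 0.05. Without a filter on the mean, 5 in place of 8 deoxynucleotide enzymes and sensors were higher. Leaving out any 1 sample, with the lone sample assumed to vary like the other group, limma called 0 genes in every list and over all genes (from 0 to 0), with 5757 to 8599 genes at an unadjusted p under 0.05 and adjusted p-values of 0.0683 to 0.300 for the 4 genes that fell; 1 residual degree of freedom was left. Their log2 fold changes then ran from −5.12 to −4.20 for *Dnase1l3*, −2.98 to −2.74 for *Pld3*, −0.97 to −0.61 for *Dnase2a* and −0.73 to −0.55 for *Pld4*. The sign turned for *Samhd1* without *Pich*-KO sample 1 (−0.094, highest value 0.28 without *Pich*-KO sample 2), for *Rnaseh2b* without *Pich*-KO sample 2 (−0.06) or *Pich*-WT sample 1 (−0.066, highest value 0.13), and for *Rnaseh2c* without *Pich*-KO sample 2 (−0.12) or *Pich*-WT sample 2 (−0.07), with a highest value of 0.12.

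The replicate numbers pair nothing that the labels name, and the deviations of same-numbered samples had a correlation of 0.0133 over 10544 genes. Under the replicate block limma called 3122 genes higher and 3874 lower, against 2459 and 3113 without it, and the nuclease genes gave 0 and 4 as before.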
